A study of Mus musculus with 6 samples.

Results

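Hand2-only intergenic peaks near genes are the Hand2 ChIP-seq peaks of the mandibular prominence (MNP) that touched no Gli3 peak and lay between genes, not far from one. They were chosen by their position alone: at least 1 bp shared with a Gli3 peak of the MNP or of the whole face put a peak out, as did a midpoint inside a protein-coding gene, and the midpoint had to lie more than 1 kb and at most 100 kb from the nearest 5′ end of a protein-coding gene. Of the 59583 Hand2 peaks, 13708 met this rule (23.0%, 95% Wilson interval 22.7 to 23.3%), and they are called members here. Their absence from the Gli3 lists, their distance and their place outside genes were fixed by the choice and are no finding. The Gli3 lists were much shorter, with 5427 peaks in the MNP and 5752 in the whole face. Absence from them does not show that Gli3 was not bound.

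The Hand2 peaks came from MNPs of CD1 mouse embryos with the genotype Hand2 3XFlagbio, in which Hand2 carries a FLAG tag, and the Gli3 peaks from MNPs and whole faces of CD1 embryos with the genotype Gli3 3XFlagbio. Each of the 3 groups had 2 replicates, each made from pooled embryonic tissue, and 1 antibody, anti-FLAG M2, served both transcription factors. The samples were labelled embryonic day 11.5, whereas the text that describes the series gives 10.5. Whole prominences hold epithelium, muscle precursors, vessels and nerves beside the mesenchyme, so a peak cannot be assigned to a cell type. The peak list of each group held both replicates merged, with no height and no read count, so no value below has an error between embryos and the depth behind a peak is unknown. Every member carried peak names of both replicates. Leaving out either replicate by these names could therefore only leave the same 13708 members, and is no check of the replicates.

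Hand2 is a basic helix-loop-helix (bHLH) transcription factor that binds DNA as a dimer, usually with an E protein, at short sites called E-boxes. In the lower jaw it acts in the distal mesenchyme, downstream of endothelin signaling from the epithelium, and sets distal against proximal identity together with homeobox factors of the Dlx and Msx families. Gli3 is the DNA-binding end of the Hedgehog pathway and recognises a different, GC-rich site.

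Sequences are shown first for the 6 mandibular patterning genes with the most members, because CAGATG was the site most often found in the middle of members among the E-box forms searched. Each is the middle 200 bp of the member closest to the gene's 5′ end that held CAGATG there, read on the plus strand of GRCm38 (mm10), with CAGATG or its complement CATCTG in capitals. The Hand2 stretch is chr8:57328416-57328615, the Msx2 stretch chr13:53498506-53498705 and the Dlx6 stretch chr6:6853088-6853287. The Hand1 stretch is chr11:57866668-57866867, the Gsc stretch chr12:104477632-104477831 and the Tbx3 stretch chr5:119688846-119689045. The midpoint of each lies outside every annotated protein-coding gene.
Hand2: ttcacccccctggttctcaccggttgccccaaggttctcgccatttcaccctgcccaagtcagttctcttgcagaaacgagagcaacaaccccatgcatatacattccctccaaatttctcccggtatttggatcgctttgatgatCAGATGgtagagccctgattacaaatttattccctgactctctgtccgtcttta
Msx2: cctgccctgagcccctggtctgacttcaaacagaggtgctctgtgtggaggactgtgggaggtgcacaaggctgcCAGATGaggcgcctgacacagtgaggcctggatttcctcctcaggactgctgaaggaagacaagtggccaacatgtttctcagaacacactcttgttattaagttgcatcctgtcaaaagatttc
Dlx6: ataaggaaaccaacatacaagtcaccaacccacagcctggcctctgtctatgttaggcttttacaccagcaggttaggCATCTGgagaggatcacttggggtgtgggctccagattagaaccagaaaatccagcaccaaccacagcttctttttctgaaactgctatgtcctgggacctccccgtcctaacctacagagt
Hand1: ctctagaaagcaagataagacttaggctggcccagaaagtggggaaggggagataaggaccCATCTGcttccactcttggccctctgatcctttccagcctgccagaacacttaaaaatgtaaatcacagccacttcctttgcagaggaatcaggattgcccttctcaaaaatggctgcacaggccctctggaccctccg
Gsc: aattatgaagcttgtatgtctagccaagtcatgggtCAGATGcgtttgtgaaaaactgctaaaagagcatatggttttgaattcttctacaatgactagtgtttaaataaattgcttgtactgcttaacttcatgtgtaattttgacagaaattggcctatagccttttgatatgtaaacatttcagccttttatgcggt
Tbx3: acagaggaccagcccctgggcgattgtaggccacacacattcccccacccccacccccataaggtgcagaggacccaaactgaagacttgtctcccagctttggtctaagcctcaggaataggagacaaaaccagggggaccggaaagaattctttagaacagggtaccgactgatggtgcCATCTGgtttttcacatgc

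CAGATG stood once in each of these stretches, and its place differed among them. The Hand2 member lay 7533 bp downstream of the Hand2 5′ end and the Tbx3 member 18277 bp downstream of the Tbx3 5′ end. The others lay upstream of their gene, by 4402 bp for Gsc, 10146 bp for Dlx6, 25532 bp for Msx2 and 33950 bp for Hand1.

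Across all members CAGATG was the most frequent E-box in the middle of the peak, and CAGCTG had the highest ratio of occurrences to the flanks among the 10 forms. In the middle 200 bp, 4094 of 13708 members held it (29.9%, interval 29.1 to 30.6%), against 15.4% of windows of the same length taken 2 kb to either side. Over the whole peak the share was 48.9% (48.0 to 49.7%), against 33.3% in flanking windows of equal width. The G/C-core form CAGCTG, a site of many bHLH dimers, stood in the middle of 20.8% of members, against 8.97% of flanking windows. Counted as occurrences, CAGATG was 2.12 times and CAGCTG 2.52 times as frequent in the middle as in the flanks.

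The other 8 forms of CANNTG were not gathered in this way. CACGTG and CAACTG reached 1.30 and 1.12 times their flanking frequency, and the remaining 6 lay between 0.93 and 1.02 times. At least 1 CANNTG of any form stood in the middle of 76.9% of members, against 65.7% of flanking windows. The middle of 44.8% of members held CAGATG or CAGCTG, that of 5.84% held both, and that of 55.2% held neither. Most members with CAGATG held it a single time: 4451 had 1, 1671 had 2, 433 had 3 and 145 had 4 or more.

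**Figure D1:**
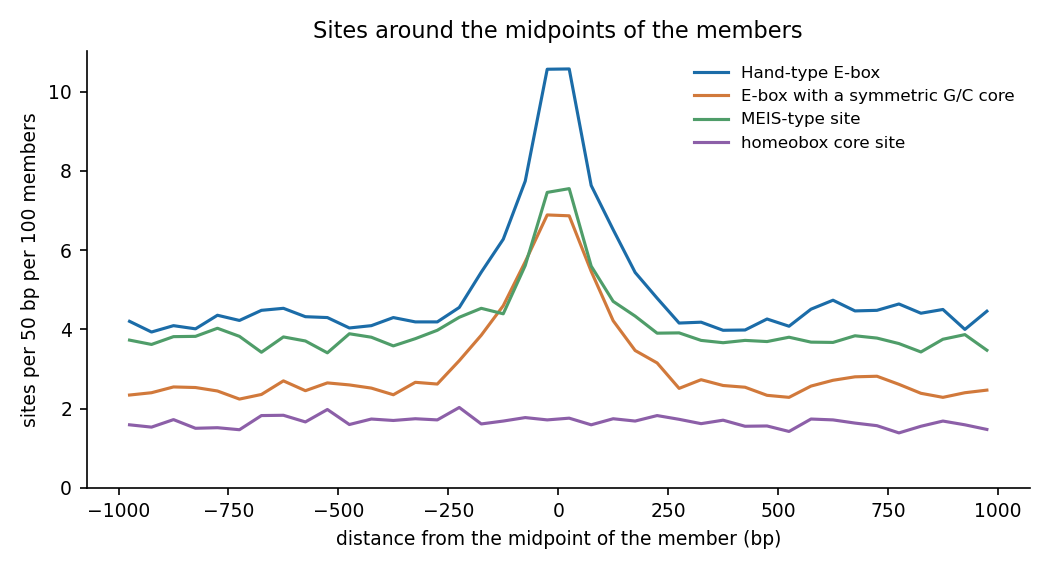
Sites per 50 bp per 100 members (y axis) against distance from the member's midpoint in bp (x axis), for the Hand-type E-box CAGATG, the G/C-core E-box CAGCTG, the MEIS-type site CTGTCA and the homeobox core TAATTA. The first 3 peak at the midpoint, at 2.57, 2.90 and 2.07 times their frequency 900 to 1000 bp away, and TAATTA stays nearly level at 1.14 times.

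The plot of sites about the midpoints shows how narrow this gathering was. Within 50 bp of the midpoint CAGATG occurred 2916 times, against 1133.5 times per 100 bp at 900 to 1000 bp. From 50 to 100 bp it stood at 1.87 times the far level, and from 200 to 300 bp at 1.07 times. CAGCTG and CTGTCA, the site of the MEIS homeodomain factors, followed the same shape. CTGTCA stood in the middle of 22.6% of members and of 12.96% of flanking windows.

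Other sites showed smaller differences from the flanks in the middle 200 bp. CATTCC, the TEAD site, was at 14.8% against 10.9%, GTAAACA, the FOX site, at 4.53% against 2.91%, and GCCNNNGGC, the AP-2 site, at 6.52% against 3.93%. TAATTA, the palindromic homeobox core, was at 6.37% against 5.35%. The NFI palindrome, TTGGC and GCCAA set 5 bases apart, was rare at 7 members. Sites of GATA factors (AGATAA, 9.24% against 11.3%), of SOX factors (ACAATGG, 2.20% against 2.95%) and of MEF2 (CTA and TAG set 4 bases apart, 2.28% against 3.22%) were less frequent in members than beside them. Both Gli sites were rare in members and in the flanks: GACCACCC was in the middle of 0.292% of members and 0.419% of windows, and GACCTCCC in 0.649% and 0.587%. GC content moved with these shares: the median was 46.9% in members and 44.9% in the flanking windows. Lower-case bases, which mark repeats in the reference, made up a median of 11.2% of a member and 21.2% of a window, and the part of either in the shares was not tested.

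All 8-base words were then counted in the middle of members and of their flanks. Of the 18101 words (a word and its complement taken as 1) found in 50 or more members, ranked by the excess over the flanks divided by the square root of the flanking count plus 1, the first was CCAGATGT, in 694 members against 136.5 flanking windows on average. Next stood TCCAGATG, with 679 against 159. CCAGCTGT followed with 673 against 181.5. Of the first 20 words, 9 held CAGATG, 6 held CAGCTG and 5 held no E-box. The C before CAGATG was thus part of the gathered word: CCAGATG was 3.85 times as frequent in the middle as in the flanks, against 2.12 times for CAGATG on any base.

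Among the words without an E-box, CCAGACGC stood in 110 members against 14 windows. It led to a count, made after these words were seen, of all 16 forms of CAGANN and of the same forms with a C before them. CAGACG, which is no E-box, came to 2.53 times its flanking frequency, and CCAGACG to 3.27 times. CCAGACA and CCAGACC reached 2.33 and 2.31 times. CAGATA, at 0.85 times, was the form least frequent relative to the flanks. The middle of 3170 members (23.1%) held no CANNTG at all, and 217 of these held CAGACG. On chromosomes other than 18, the only ones searched for this, 2 such members held CCAGACGC beside a gene of the lists used here. They lay upstream of Runx1, by 28431 bp (chr16:92854532-92854571), and upstream of Col1a1, by 44891 bp (chr11:94891347-94891386). Both stretches are on the plus strand of GRCm38, with CCAGACG in capitals.
Runx1: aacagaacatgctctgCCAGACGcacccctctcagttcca
Col1a1: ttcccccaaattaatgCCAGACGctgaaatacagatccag

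The E-box was next read against the homeobox core, since Hand2 shares its tissue with Dlx, Msx and other homeodomain factors. With TAATTA, no spacing stood out by a wide margin: the leading spacing was 13 bp, TAATTA on the 5′ side of CAGATG, in 12 members against a median of 2 over all spacings up to 40 bp. With the shorter core TAAT, the spacing of 6 bp on the 5′ side and the same strand was held by 135 members (0.985%, interval 0.833 to 1.16%). The median over the spacings was 29 members, the next highest spacing had 68, and flanking windows of equal width held the 6 bp pair in 21.5 cases on average. With bases in lower case masked the pair remained the leading one, in 119 members against 18 windows, and in the middle 200 bp it led with 86.

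**Figure D2:**
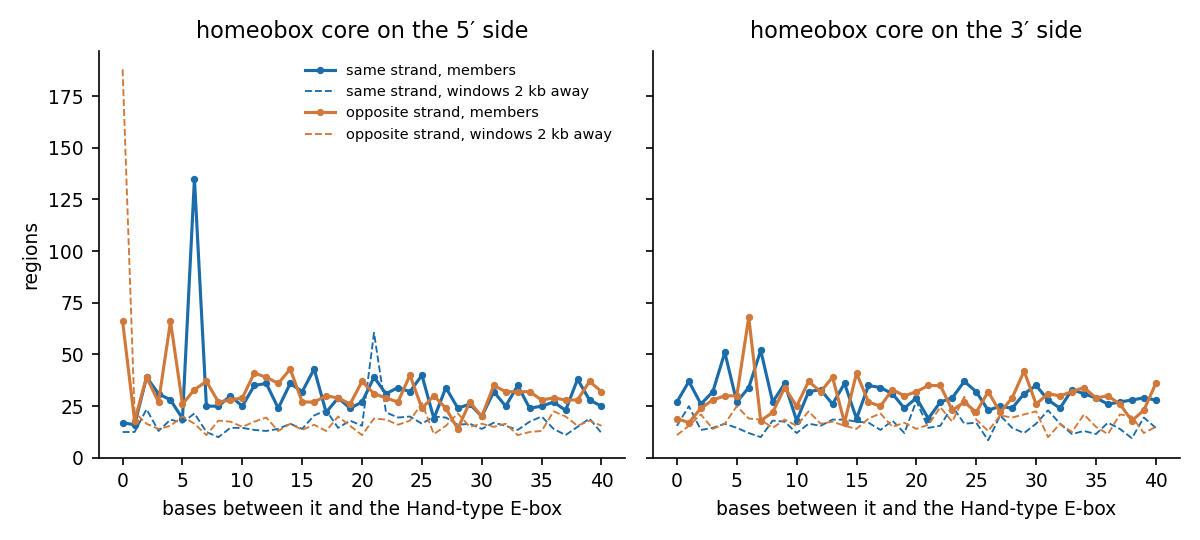
Number of regions (y axis) that hold the homeobox core TAAT at each number of bases (x axis) from a Hand-type E-box CAGATG, on its 5′ side (left) and 3′ side (right). Solid lines are members and broken lines the mean of the flanking windows, for the same and the opposite strand. The point at 6 bases, 5′ side and same strand, stands at 135 members, and the broken peak at 0 bases stands at 188 windows.

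The flanking windows had a peak of their own, at 0 bases and on the opposite strand, with 188 windows against 66 members. Masking lower-case bases left 22.5 windows and 35 members there, so most of the pairs in the windows held lower-case bases. A smaller peak of the windows at 21 bases, 60.5 on the same strand, came to 10.5 with masking. The pair at 6 bp was not made of TAATTA: only 9 of the 136 occurrences had TA after TAAT. The base after CAGATG was T in 69 of them (50.7%), against 33.4% of all CAGATG of members. The search for this pair beside genes of the lists left out a chromosome, named below with the rule for sequences. Within the part searched, 4 of the 135 members with this pair lay beside such genes. Their stretches are shown with TAAT and CAGATG in capitals. That of Hand2 is read on the minus strand (chr8:57328615-57328664), 7533 bp downstream of the 5′ end, in the same peak as the Hand2 stretch shown first and beginning where that one ends. The others are on the plus strand, upstream of Sfrp1 (chr8:23384504-23384553), a secreted Wnt inhibitor, of Col1a1 (chr11:94882027-94882076), a chain of type I collagen, and of Boc (chr16:44615928-44615977), a Hedgehog co-receptor.
Hand2: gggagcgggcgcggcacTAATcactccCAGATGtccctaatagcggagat
Sfrp1: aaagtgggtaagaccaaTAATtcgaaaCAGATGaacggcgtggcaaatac
Col1a1: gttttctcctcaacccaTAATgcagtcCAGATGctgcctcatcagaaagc
Boc: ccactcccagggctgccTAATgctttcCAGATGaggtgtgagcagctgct

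The pair was not confined to members. It was in 1.02% of Hand2-only peaks inside genes (0.906 to 1.16%), in 1.19% of Hand2-only intergenic peaks beyond 100 kb (1.01 to 1.40%) and in 2.03% of intergenic Hand2 peaks that touched a Gli3 peak (1.25 to 3.26%). The first 2 of these intervals overlap that of the members, and the last, from 16 of 790 peaks, lies above it. The pair was counted over the whole peak, and Gli3-touching peaks were wider (median 642.5 bp, members 435 bp). Of the peaks with CAGATG, 2.01% of members and 3.61% of Gli3-touching peaks held the pair. These differences, and the part of width in them, were not tested.

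Members were compared in motif content with 3 classes of Hand2 peaks, by Fisher's exact test (two-sided) on the number of peaks with a motif. There were 82 tests, adjusted by the Benjamini-Hochberg method, and a call means an adjusted p below 0.05. Neighbouring peaks are not independent and no embryo is replicated in these counts, so the p-values measure counting error only.

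Against the 24714 Hand2-only peaks inside gene bodies, members differed in few motifs. CAGATG stood in 48.9% of members and 49.1% of gene-body peaks, a difference of -0.23 points (interval -1.28 to 0.81, adjusted p = 0.784 by Fisher's exact test). TAATTA stood in 14.6% and 15.1%, a difference of -0.52 points (-1.26 to 0.22, adjusted p = 0.262, Fisher's exact test). The sign of this difference and its call depended on the setting: with 1 peak per gene it was called at 1.45 points, and with lower-case bases masked at -1.06 points. Of the 28 motifs, 2 were called more frequent in members (7.14%) and 1 less frequent (3.57%). GCCNNNGGC was in 13.7% of members and 12.9% of gene-body peaks (adjusted p = 0.0364) and CCGGAAG, the ETS site, in 2.90% and 2.40% (adjusted p = 0.00843, both by Fisher's exact test). CACATG was in 33.2% and 34.9% (adjusted p = 0.00346, Fisher's exact test). In the middle 200 bp neither of the 2 higher calls held.

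Against the 12029 Hand2-only intergenic peaks beyond 100 kb, members differed in more motifs. CAGATG stood in 48.9% of members and 51.0% of the distal peaks (difference -2.08 points, -3.30 to -0.85, adjusted p = 0.00318, Fisher's exact test). The difference was of this sign and called in each alternative tried. TAATTA stood in 14.6% and 18.7% (adjusted p = 1.1e-17, Fisher's exact test). In a logistic model with peak width and GC content this difference was -0.33 points and was not called. Of the 28 motifs, 6 were called more frequent in members (21.4%) and 10 less frequent (35.7%). The 6 were GCCNNNGGC (13.7% against 9.40%), CAGCTG (36.3% against 32.2%), CACCTG (27.6% against 24.9%), CACGTG (7.81% against 5.82%), CCGGAAG (2.90% against 1.71%) and GACCACCC (0.890% against 0.632%). The 10 comprised CAGATG, the homeobox core and also CAAATG (31.2% against 36.8%), CATATG (11.9% against 15.4%), CAATTG (7.003% against 8.98%), CACATG (33.2% against 35.96%), AGATAA (22.4% against 25.6%), CTTTGAT (9.22% against 11.6%), CTGTCA (39.9% against 41.7%) and TGATTNAT (7.35% against 9.56%). With width and GC content in the model, only CACGTG remained of the 6, and 4 of the 10, which were CAGATG and CAAATG, the MEIS site CTGTCA, and CTTTGAT, the TCF/LEF site. The median GC content was 46.9% in members and 43.6% in the distal peaks, and the widths were alike, with medians of 435 and 438 bp.

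Against the 790 intergenic Hand2 peaks near genes that touched a Gli3 peak, every called motif was less frequent in members over the whole peak: 16 of 26 tested (61.5%), and none was called more frequent (0%; also 0 at an unadjusted p below 0.05, Fisher's exact test). These peaks were wider, with a median of 642.5 bp against 435 bp for members, and had a GC content of 51.0% against 46.9%. CAGATG stood in 48.9% of members and 56.1% of Gli3-touching peaks (adjusted p = 3.6e-04, Fisher's exact test). In the middle 200 bp it stood in 29.9% and 28.5% (adjusted p = 0.635, Fisher's exact test). This middle was set by the midpoint of the merged peak and need not hold a summit. A single summit in each replicate was named for 88.9% of members and 71.0% of Gli3-touching peaks. In the middle 200 bp only GCCNNNGGC was still called lower, with 6.52% of members and 11.6% of the Gli3-touching peaks. There 5 motifs were called more frequent in members: CANNTG (76.9% against 71.6%), CTGTCA (22.6% against 17.97%), AGATAA (9.24% against 6.20%), TGANTCA, the AP-1 site (6.57% against 3.67%), and TGATTNAT, the PBX/HOX site (2.79% against 0.886%). In the model with width and GC content, TAATTA was the only motif called lower, at predicted shares of 14.6% and 21.4%, and 7 motifs were called higher, CAGCTG and CTGTCA among them.

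**Figure D3:**
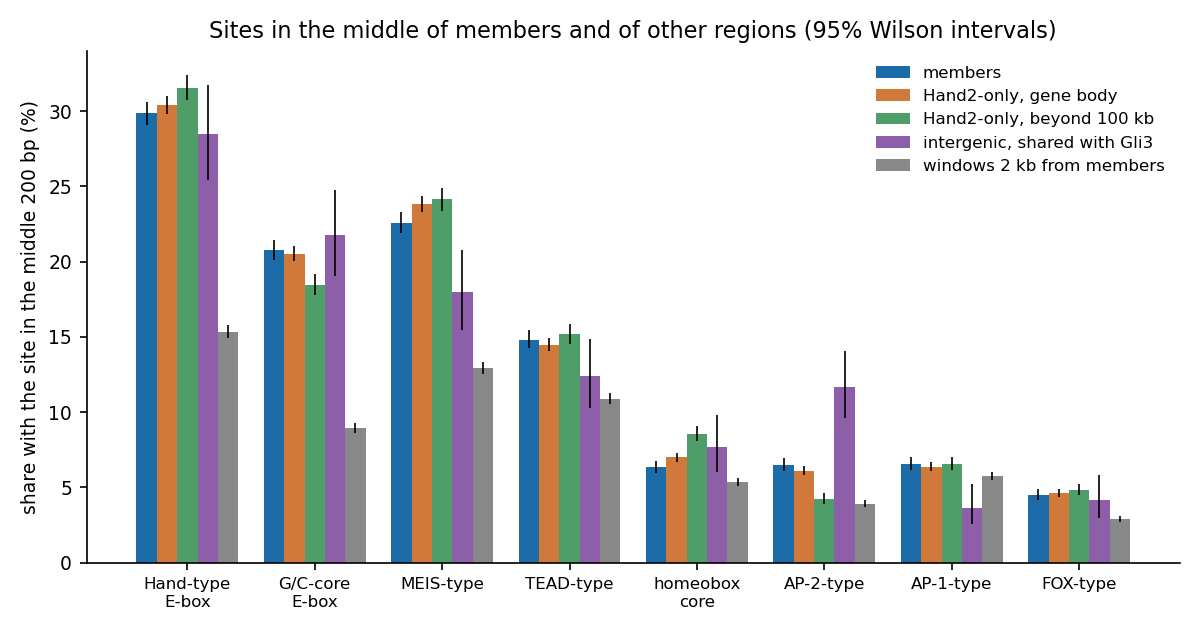
Share of regions in percent (y axis) with each of 8 sites (x axis) in their middle 200 bp, for members, Hand2-only gene-body peaks, Hand2-only intergenic peaks beyond 100 kb, intergenic peaks shared with Gli3 and windows 2 kb from members, with 95% Wilson intervals. All 4 classes of peaks stand above the windows for both E-boxes. The Gli3-sharing peaks stand above the other classes of peaks at the AP-2-type site (11.6%, members 6.52%). They stand below them at the MEIS-type site (17.97%, members 22.6%) and the AP-1-type site (3.67%, members 6.57%). At these sites their intervals do not overlap those of the other classes of peaks.

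The Gli sites were not tested against the Gli3-touching peaks, since overlap with Gli3 peaks set both classes apart. GACCACCC stood in 0.890% of members and 13.2% of Gli3-touching peaks, and GACCTCCC in 1.52% and 8.10%. The nearest Gli3 peak lay a median of 61630 bp from a member, and 13.3% of members had one within 10 kb. The smallest gap was 19 bp, and the smallest overlap that put a peak on the other side of the rule was 3 bp. At the distance limits, the closest member lay 1002 bp from a 5′ end, beside Hist1h2bk, and the last peak outside it 998 bp, beside Zfp131. The farthest lay 100000 bp from Ccnd2, and the next peak beyond it 100010 bp from Gm10192.

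Members also differed from the Gli3-touching peaks in shape. A wider peak shares 1 bp with a Gli3 peak more easily, so the rule itself may set part of the differences in width and summits. That part was not tested. A single summit in each replicate was named for 12193 members (88.9%), against 561 of 790 Gli3-touching peaks (71.0%), and more than 1 summit in both replicates for 4.71% and 16.2%. Gene-body and distal Hand2-only peaks stood at 88.6% and 89.0% for the first of these. The replicates named the same number of summits in 93.0% of members. Where they differed, replicate 1 had more in 595 members and replicate 2 in 364. The narrowest member was 199 bp and the widest 2842 bp.

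Members lay upstream of their nearest gene in 9839 cases (71.8%), and upstream sequence made up 512.7 of the 729.4 Mb in which a member could lie. Per Mb of this sequence, upstream sequence held 19.2 members and downstream sequence 17.9. On both sides together the density was 17.5 members per Mb at 1 to 5 kb, 17.2 at 5 to 20 kb, 19.3 at 20 to 50 kb and 20.1 at 50 to 100 kb. Upstream it was 17.9, 17.9, 19.8 and 20.4 per Mb in these bands. Downstream the range was wider, at 13.7, 14.9, 18.3 and 19.5 per Mb, the first from 87 members. The share with CAGATG was higher in each farther band, at 43.4% (40.6 to 46.2%), 47.6% (46.0 to 49.3%), 49.2% (47.8 to 50.7%) and 51.0% (49.6 to 52.5%) in those bands. The first and last of these intervals do not overlap, and those of neighbouring bands do. Median width was 413 bp in the nearest band and 437 bp in the farthest, and median GC content fell along the bands, with 47.9% in the nearest and 46.0% in the farthest. In the middle 200 bp the shares were 27.7% (25.3 to 30.3%), 29.2%, 29.8% and 31.0% (29.6 to 32.4%), and the intervals of the first and last overlap.

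Many members stood alone: 8779 (64.0%) had no other member within 5 kb, and 13.1% belonged to runs of 3 or more with gaps of at most 5 kb. There were 3 runs of 10 members. The shortest spanned 18.2 kb between Rpusd4 and Cdon (chr9:35326635-35344829), 76.3 kb from the 5′ end of Cdon, which encodes a Hedgehog co-receptor. The nearest 5′ end was that of Cdon for the farthest member only, at 76536 bp. For the others it was that of Rpusd4, at 59187 bp or more. The members of this run were 346 to 872 bp wide, and 6 of the 10 held CAGATG, 3 of them in the middle 200 bp. Another began with a member 3836 bp downstream of the Hand2 5′ end and ran for 36.96 kb (chr8:57324672-57361634). Its members were 294 to 1286 bp wide, with CAGATG in 8 of 10 over the whole peak and in 3 in the middle 200 bp. A run of 9 members lay on the other side of Hand2, beside Fbxo8 and 691 kb from the Hand2 5′ end (chr8:56603072-56629952).

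The last run of 10, upstream of the autophagy gene Atg7 (chr6:114584466-114612062), was of another kind. Atg7 had the most members of any gene, 24, and CAGATG stood in 23 of them. These members copied each other: of the 16-base words of each, 74.2 to 100% (median 97.3%) were also found in another member beside Atg7. Their starts stood in steps near a common length, the 14 steps below 3 kb measuring 2180 to 2592 bp, and the median of those 14 was 2466.5 bp. Of all 23 steps, 21 lay off a whole multiple of this median by at most 10% of it. The stretch that follows, chr6:114636671-114636720 on the plus strand of GRCm38 with CAGATG in capitals, was found base for base in 18 of the 24 members and in no other member.
Atg7: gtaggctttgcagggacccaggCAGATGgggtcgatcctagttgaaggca

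A median of 60.8% of an Atg7 member was in lower case, and reads of 75 bp can match several such copies equally well. Whether each copy was bound was not tested. Without these 24 members the CAGATG share was 48.8%. Such copies were rare elsewhere: 50 of the 10847 members that share a gene with another member had 50% or more of their words in common with it, and 24 of those 50 were the Atg7 members. Beside Hand2, Msx2, Gas1, Dlk1, Tas2r134 and Rpusd4 no member had more than 1.45% of its words in another.

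A member was given to the gene with the nearest 5′ end, which does not show that it acts on that gene. Of 21938 protein-coding genes, 5833 had at least 1 member (26.6%), with a median of 2. Of genes with a member 49.0% had exactly 1, whereas 704 genes with 5 or more took 35.8% of members. Beside Atg7 the genes with the most members were Dlk1, a Notch-like ligand, Gm11733 and the taste receptor gene Tas2r134 with 17 each, then Hand2, Smim23 and the Groucho corepressor gene Tle3 with 16 each. Actbl2, Gas1 and Irx3 had 15 each, as did Msx2. Genes differ in how much sequence they leave for members (median 20.9 kb), so densities are given below per 100 kb of it. Over all genes the density was 1.88 members per 100 kb.

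**Figure D4:**
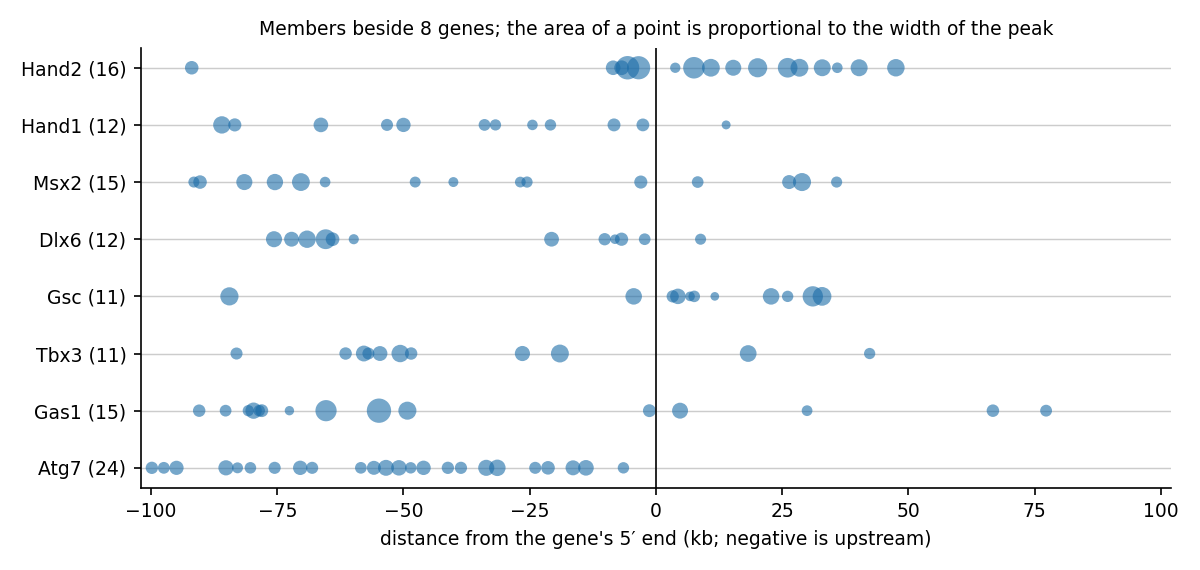
Distance in kb from the gene's 5′ end (x axis, negative upstream) of each member beside 8 genes (y axis, with the number of members). A point is a member and its area is proportional to its width. The members of Hand2 sit mostly downstream, 11 of 16, those of Hand1 upstream, 11 of 12, and the 24 of Atg7 stand in near-regular steps, upstream because the gene itself fills the other side.

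Genes that pattern the mandible had the highest density of the 14 lists. Of 31 such genes 26 had a member (83.9%, against 26.6% of all genes), 152 members in all and 5.71 per 100 kb. Hand2 itself had 16, the closest 3433 bp upstream of its 5′ end and the widest 1519 bp, and CAGATG stood in 10 of them. Hand1, its paralog, had 12, at 2582 to 85977 bp, 6 with CAGATG. Among homeobox genes Msx2 had 15 members (10.7 per 100 kb, 6 with CAGATG), Dlx6 had 12 (11.6 per 100 kb, 4 with CAGATG) and Gsc 11 (10 with CAGATG). The T-box gene Tbx3 had 11, 4 of them with CAGATG, and Foxd1, a forkhead gene, had 5, all downstream. These counts with CAGATG are over the whole peak. In the middle 200 bp they were 3 (Hand2), 1 (Hand1), 5 (Msx2), 2 (Dlx6), 6 (Gsc) and 3 (Tbx3). CAGATG stood in 53.3% of the members of this list and in 48.9% of all members, or in 30.9% and 29.9% in the middle 200 bp. The share over the whole peak was higher in the epithelium, liver and blood lists, at 56.25%, 54.5% and 53.8%.

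In the list of endothelin genes and Mef2c, 7 of 10 genes had a member, at 3.09 per 100 kb. The receptor genes Ednrb and Ednra had 8 and 5 (4.81 and 5.05 per 100 kb). The ligand genes Edn3 and Edn1 had 7 and 2 (5.58 and 1.04 per 100 kb). Ednrb had CAGATG in 1 of its 8 members and Ednra in 3 of its 5. Of the 17 bHLH partners and inhibitors 15 had a member (4.91 per 100 kb). Twist2 and Twist1, bHLH factors of the mesenchyme, had 14 and 9, and the 9 of Twist1 lay within 22680 bp of its 5′ end.

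The signaling lists stood between 4.25 and 5.20 per 100 kb. In the Hedgehog pathway 9 of 16 genes had a member, at 5.13 per 100 kb. The co-receptor genes Gas1, Boc and Cdon had 15, 7 and 7, and the receptor gene Ptch1 had 6. Gli3, the gene of the protein whose peaks members do not touch, had 8, with the closest at 1155 bp. In the Fgf list 12 of 14 had a member (5.20 per 100 kb), with 12 beside Dusp6, 11 beside Spry4 and 5 beside Spry2, all 3 feedback inhibitors, and 7 beside the ligand gene Fgf10. In the Wnt list 19 of 24 had a member (4.49 per 100 kb), with 11 beside the receptor gene Fzd7, 11 beside the ligand gene Wnt11, 8 beside the feedback inhibitor gene Axin2 and 7 beside Sfrp1. In the Bmp and Tgf-beta list 15 of 21 had a member (4.25 per 100 kb), with 12 beside the inhibitor gene Smad7, 11 beside the ligand gene Bmp2, 7 beside the receptor gene Bmpr1b and 5 beside the pseudoreceptor gene Bambi.

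Skeletal lists differed from each other. Of the 18 bone genes 11 had a member, at 5.01 per 100 kb. Beside Twist1, which the list also holds, Col1a1, Postn, which encodes a matrix protein, and the transcription factor gene Runx1 had 7 each. Of the 17 cartilage genes 10 had a member, at 2.40 per 100 kb. Sox9, the regulator of chondrocyte fate, had 6 of these, at 2254 to 64568 bp, Col2a1 had 3, and Cnmd and Col11a1 had 2 each. A further 42 Hand2-only peaks had Sox9 as nearest gene from beyond 100 kb.

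Lists of other cell types and of liver stood between 1.68 and 3.52 per 100 kb, and all genes at 1.88. Skeletal muscle stood at 10 of 23 genes and 1.78 per 100 kb, with 4 members beside Pax3, 3 beside Lbx1, 3 beside Myod1 and 1 beside Actc1. Neurons stood at 10 of 16 and 1.68 per 100 kb, with 5 beside Stmn2 and 3 each beside Isl1 and Nefl. Epithelium stood at 7 of 14 and 2.36 per 100 kb, with 4 beside Grhl2, 3 beside Epcam and 2 beside Krt8. Blood and endothelium stood at 8 of 15 and 3.52 per 100 kb, with 9 beside Cdh5, a junction protein of vessels, 6 beside Erg, 4 beside Cd34 and 3 beside Kdr. Liver, a tissue not sampled, stood at 4 of 13 and 2.30 per 100 kb, 8 of its 11 members being beside Apob and 1 each beside Alb, Cyp2e1 and Tat. These lists were described and not tested, and some genes stand in several of them.

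**Figure D5:**
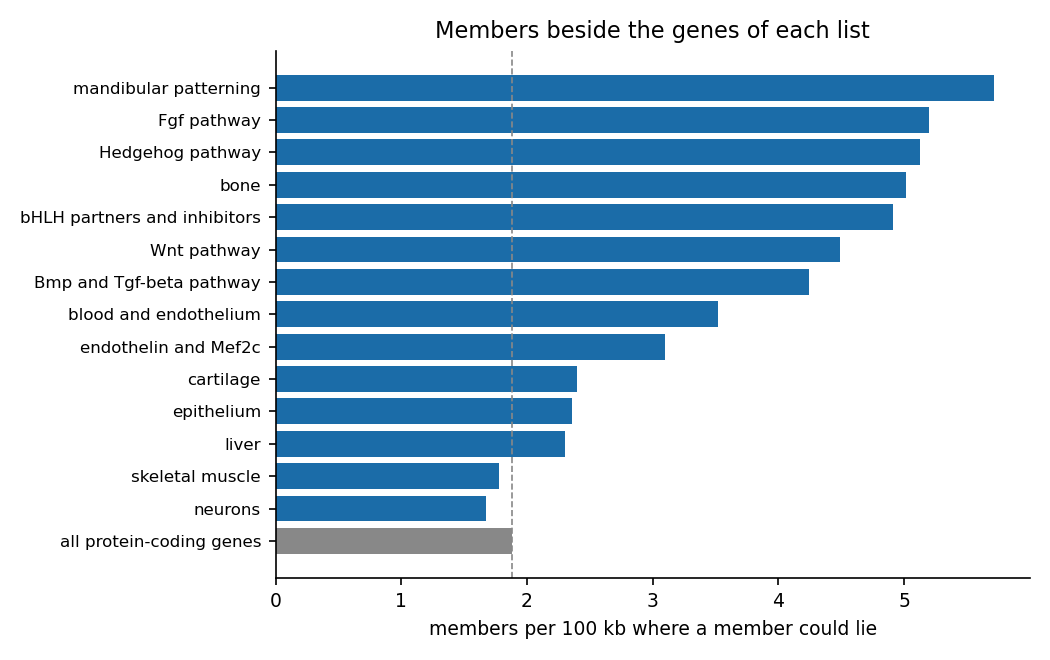
Members per 100 kb of sequence in which a member could lie (x axis) for each of 14 gene lists and for all protein-coding genes (y axis, grey bar and broken line at 1.88). The mandibular patterning list stands at 5.71 and the neuron list at 1.68.

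Of the other genes that the study followed, Maf had 3 members, at 41488 to 98980 bp. It was also the nearest gene, by 5′ end, of 17 Hand2-only peaks inside a protein-coding gene, which need not be Maf itself. Plagl1 and Myh6 had no member, with 26.6 and 2.76 kb of sequence in which a member could lie. Of the 617 genes with a Gli3-touching intergenic peak 490 (79.4%) also had a member, and these were 8.40% of the 5833 genes with a member. A gene with either kind of peak needs intergenic sequence, and of the genes with 100 kb or more of it 58.8% had a member. This difference was not tested. Genes with a member had a Hand2 peak within 1 kb of their 5′ end in 35.3% of cases, and genes without in 24.1%.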

How the data were processed

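ChIP-seq libraries were sequenced by the authors as reads of 75 bp, mapped to mm10 (GRCm38) with bwa, peaks were called against input with MACS, and those of both replicates were merged with bedtools into 1 list per group. The submitters' processing notes also name HOMER, and no versions. In the deposited lists each peak has its positions in mm10 and its replicate peak names, with no score, p-value or count; the number of other columns of per-sample values was 0. Peaks on chromosomes 1 to 19, X and Y were used.

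Positions were counted from 1 and read against GRCm38 and GENCODE vM21 (21938 protein-coding genes). Midpoints set the place of a peak, and the 5′ end was that of the gene record. Exact motifs were searched on both strands, overlaps allowed. The windows 2 kb to either side had the width of the peak. For spacings, a member counted for each spacing up to 40 bp. Shares carry 95% Wilson intervals, for counting error only, and differences Newcombe intervals. Classes were compared by Fisher's exact test. Alternatives were other overlaps, distance limits, gene definitions, stretches and maskings, 1 peak per gene, and a logistic model with log2 width and GC content as terms (Wald test, difference of mean predicted shares).

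The members, the 14 gene lists and the motifs were chosen with earlier results of these data known. The genes named were, of each list, the 4 with the most members, the 10 genes with the most, the genes the study follows, those flanking the 3 longest runs, and the 6 whose sequences are shown; some genes that this rule names are not reported here. The rule for sequences left out chromosome 18. It used TAATTA at its leading spacing, which no member beside a listed gene on other chromosomes had. The pairs with TAAT, the CAGANN forms, the Atg7 copies, the count of shared words and the counts of called motifs in the middle 200 bp and in the model were added after the data were seen.

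Python 3.11.15, NumPy 2.4.6, pandas 2.3.3, SciPy 1.17.1, statsmodels 0.14.6 and matplotlib 3.10.9 were used, and the search, spacing and test code was tested on simulated sequences.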

Additional observations from a re-analysis of the deposited data

How the results depend on the processing

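No paired analysis was possible because both replicates of a group stand merged in 1 list. Every entry names both replicates, so leaving out either replicate by name gave the same values throughout: 13708 members, CAGATG shares of 48.9% and TAATTA shares of 14.6%. Under 7 other definitions of overlap, gene or distance the number of members ran between 9271 (upper limit 50 kb) and 19125 (genes of every type). The CAGATG share was 29.9% in the middle 200 bp, 33.3% in windows 2 kb away, 44.8% with lower-case bases masked, 59.5% in members of median width or wider and 46.4% with 1 peak per gene. The TAATTA share was 6.37%, 12.98%, 11.8%, 18.97% and 13.8% under the same settings.

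CAGATG against Gli3-touching peaks reversed in the middle 200 bp, at 1.38 points (adjusted p = 0.635, Fisher's exact test), and in the logistic model, at 2.62 points, and was called in neither. Widths differed between these classes. TAATTA against gene-body peaks reversed to 1.45 points with 1 peak per gene (adjusted p = 0.0358, Fisher's exact test) and to 0.032 points in the model, where it was not called. It was called at -1.06 points with masking and at -0.98 points with the 5′ end of any transcript. TAATTA was no longer called against distal peaks in the model, at -0.33 points, nor against Gli3-touching peaks in the middle 200 bp, at -1.35 points. The cause was not tested.

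The leading spacing of 13 bp became 6 bp with TAAT, with and without masking and in the middle 200 bp, 4 bp with CANNTG and 4 bp for TAATTA in the middle 200 bp. The share of mandibular patterning genes with a member ran between 74.2% (upper limit 50 kb) and 87.1% (nearest gene on each side, where 38.5% of all genes had one). Counts of motifs called higher and lower were 0 and 2 against gene-body peaks in the middle 200 bp, and 1 and 1 in the model. Against distal peaks they were 5 and 11 in the middle 200 bp, and 1 and 4 in the model. Against Gli3-touching peaks the middle 200 bp called 5 higher and 1 lower, and the model 7 higher and 1 lower. With no peak heights, members could not be limited to strong peaks.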

Other observations

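Long noncoding genes held some groups of members, chosen here after their values were seen. The midpoint lay in the body of a long noncoding gene for 1849 members (13.5%). It lay within 1 kb of the 5′ end of one for 400 (2.92%). The first share was 15.1% in Hand2-only intergenic peaks beyond 100 kb, 17.97% in Gli3-touching intergenic peaks and 4.64% in Hand2-only gene-body peaks. The second was 1.81%, 7.47% and 1.22% in these classes. The differences from members were not tested. Mir99ahg held 10 members over 537111 bp, and Sox2ot 9 over 578350 bp. Tbx3os1, next to Tbx3, held 9 over 101236 bp. Airn, the antisense RNA of the imprinted Igf2r locus, held 8, and Dlk1, also an imprinted gene, was the nearest gene of 17. Hand2os1, the antisense neighbour of Hand2, held 4.

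Repeated E-boxes were found in a few members. The most was 16 copies of CAGATG, in a member of 513 bp 86322 bp from the Agtr1a 5′ end, 49.9% of which was in lower case. A member 31957 bp from Zc3h8 held 12 copies in 681 bp with no base in lower case. Outside the Atg7 members, the largest group of copies was beside Esx1 on the X chromosome, where 4 of 5 members shared 50% or more of their 16-base words and none held CAGATG.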
